A study of Mus musculus with 16 samples.

Results

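Interstitial collagens and matrix glycoproteins make up the fibrous scaffold of connective tissue. The set described here held 38 mouse genes: 24 collagen chains of the fibrillar, beaded filament, network, fibril-associated, anchoring, multiplexin and transmembrane families, and 14 glycoproteins and proteoglycans. They were chosen by gene symbol, with type IV collagens and cartilage collagens left out on purpose, and all 38 were found among the 48709 gene features of the count table. RNA had been sequenced from embryonic salivary glands dissected into mesenchyme, the connective tissue of the gland, and epithelium, the tissue that branches into buds and ducts. The 16 libraries fell into 4 groups of 4: parotid mesenchyme, submandibular mesenchyme, parotid epithelium and submandibular epithelium. Every group came from wild-type ICR mice, an outbred strain, at embryonic day 13, carried no engineered allele and was given no agent that the labels name. The labels call the 4 libraries of a group independent biological replicates but do not say how many embryos went into each. The series also describes glands kept in culture, whereas its titles and protocol describe fresh harvest, so whether any tissue was cultured before RNA was taken could not be settled.

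As background, fibrillar collagens assemble from trimers of chains into cross-striated fibrils, with type V chains nucleating fibrils of types I and III, and fibril-associated collagens and small leucine-rich proteoglycans sit on the fibril surface and limit its growth. Fibronectin, tenascin C, periostin and SPARC link fibrils to cells or modulate that contact, and fibrillins, fibulins and elastin form microfibrils and elastic fibres. In developing salivary glands fibronectin and fibrillar collagen gather in the clefts that divide buds. Much of the interstitial matrix of the gland is made by the mesenchyme around the epithelium.

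Counts over genes summed to 16912258 to 27646844 per library, and levels are given as CPM, counts relative to the library total scaled by edgeR's TMM factors. The 38 members took 3.07 to 4.17% of the gene counts in parotid mesenchyme, 2.04 to 2.28% in submandibular mesenchyme, 0.209 to 0.257% in parotid epithelium, and the share was 0.175 to 0.269% in submandibular epithelium. The labels of the layers matched their markers: 15 epithelial marker genes summed to 17.4 to 66.2 CPM in the 8 mesenchyme libraries and to 2905 to 3502 CPM in the 8 epithelium libraries. All 15 mesenchymal marker genes reached a mean of 1 CPM in both mesenchymes. Their sum was 5059 ± 709 CPM in parotid mesenchyme, 3657 ± 117 in submandibular mesenchyme, 425 ± 12.1 in parotid epithelium and 421 ± 28.5 in submandibular epithelium (SD, n = 4 each). Meis1, a homeobox gene on that list, alone gave 312 to 360 CPM of the epithelial sums. A difference is called below where the adjusted p of edgeR's quasi-likelihood test, fitted to all 16 libraries and adjusted by Benjamini-Hochberg over 18191 genes, was under 0.05. All 38 members passed the filter on low counts, and values of the 4 libraries of a group are given in the order of replicates 1 to 4.

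Per kilobase of annotated exon, Col3a1, the single chain of type III collagen, had the highest level of the 38 in both mesenchymes, with 1194 CPM per kb in parotid and 811 in submandibular mesenchyme. Col1a1, the major chain of type I collagen, was next with 687 CPM per kb in parotid and 245 in submandibular mesenchyme. Behind these the order differed between the glands. In parotid mesenchyme the next were Lum (577 CPM per kb), Postn (425), Dcn (388), Sparc (344) and Col1a2 (311). In submandibular mesenchyme they were Col1a2 (187), Sparc (170), Lum (154), Dcn (150) and Col6a1 (122), and Postn stood at rank 16 with 33.1 CPM per kb. The epithelia had another order altogether: Sparc led with 112 CPM per kb in parotid and 136 in submandibular epithelium, followed by Fbln1 (50.8) and Col18a1 (30.2) in parotid and by Col18a1 (41.2) and Col17a1 (38.8) in submandibular epithelium. Col22a1, a fibril-associated collagen of myotendinous junctions, was lowest in both mesenchymes with 0.06 and 0.14 CPM per kb in parotid and submandibular mesenchyme.

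**Figure D1:**
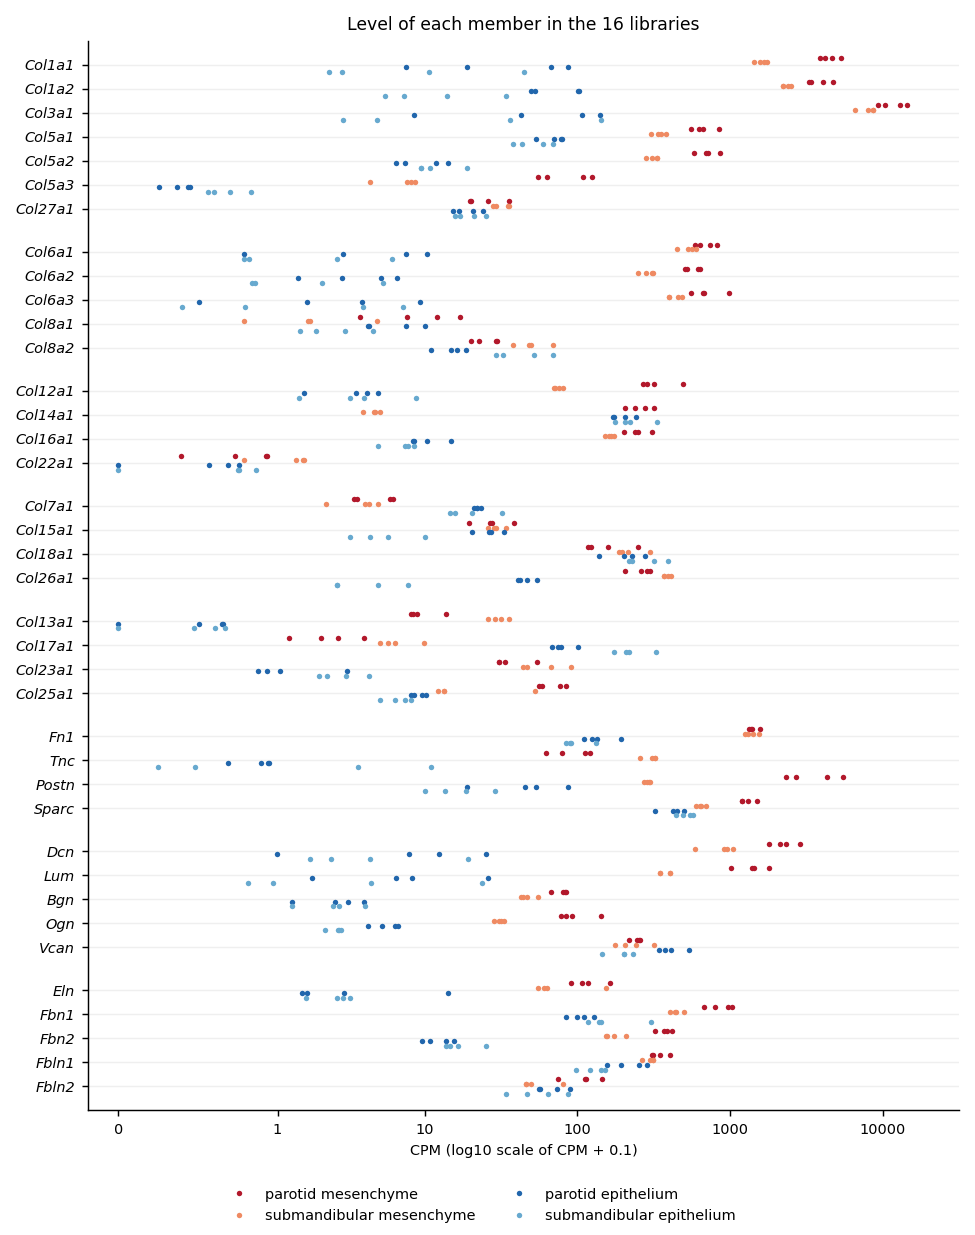
CPM of each of the 38 members in each of the 16 libraries, on a log10 axis of CPM + 0.1, with members grouped by family and 1 point per library. The mesenchyme points lie far to the right for Col1a1, Col3a1, Dcn and Lum, the groups intermix for Col18a1, and the epithelium points lie to the right for Col7a1 and Col17a1.

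Most of the set was mesenchymal, and a smaller part was epithelial or shared. Between mesenchyme and epithelium of the parotid gland, 29 of 38 members were higher in mesenchyme, where 33.5% of all genes tested were called higher, and 3 were lower, where 31.4% were called lower. In the submandibular gland 29 were higher in mesenchyme and 3 lower, against 33.7% and 33.3% of all genes. The median log2 fold change of the members was 4.37 in parotid and 3.91 in submandibular gland, against medians of 0.00 and -0.01 over all genes tested. In these bulk samples fewer cells of a type and less RNA per cell cannot be told apart. In both glands 27 members were higher in mesenchyme and 2, Col17a1 and Col7a1, were lower. The share of all genes called the same way in both glands was not counted. Col18a1, Col22a1 and Col8a1 were called in neither gland.

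Type I, III and VI collagen chains and the small proteoglycans decorin and lumican were among the most mesenchymal members. Col3a1 had 9231, 12921, 10363 and 14362 CPM in parotid mesenchyme, against 43.2, 8.49, 141 and 108 CPM in parotid epithelium. In submandibular gland it had 7957, 8662, 8632 and 6593 CPM in mesenchyme, against 4.85, 2.86, 143 and 36.6 CPM in epithelium. No library of 1 layer reached the range of the other, and the log2 fold change was 7.28 ± 1.27 (SE) in parotid and 7.42 ± 1.28 in submandibular gland (adjusted p = 0.000211 and 0.000184, edgeR). Without replicate 3 of submandibular epithelium the submandibular value was 9.08. The 3 chains of type VI collagen, which form beaded filaments around cells, had log2 fold changes of 7.04 for Col6a1, 7.16 for Col6a2 and 7.60 for Col6a3 in parotid gland and of 7.85, 7.15 and 7.27 in submandibular gland. Without replicate 3 of parotid epithelium Col6a3 was at 8.58 in parotid gland, and without replicate 3 of submandibular epithelium the 3 chains were at 8.72, 7.997 and 8.13 in submandibular gland. Dcn, which encodes decorin, averaged 2267 ± 446 CPM in parotid mesenchyme and 11.7 ± 10.3 CPM in parotid epithelium (SD, n = 4 each), a log2 fold change of 7.60 ± 0.94, and of 8.32 without replicate 3 of parotid epithelium. Col5a3, a minor chain of type V collagen, had the largest fitted value of the set in parotid gland, 9.15 ± 0.40, with 88.2 ± 34.0 CPM in mesenchyme and 0.152 ± 0.0502 CPM in epithelium.

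Epithelial collagens formed the other end. Col17a1, a transmembrane collagen of the hemidesmosomes that fix basal cells to the basement membrane, had 3.97, 2.63, 2.01 and 1.21 CPM in parotid mesenchyme, against 68.7, 101, 78.6 and 75.2 CPM in parotid epithelium. In submandibular gland it had 5.72, 6.34, 9.91 and 5.06 CPM in mesenchyme, against 175, 218, 331 and 209 CPM in epithelium. The ranges did not overlap in either gland, with log2 fold changes of -5.06 ± 0.32 in parotid and -5.11 ± 0.30 in submandibular gland (adjusted p = 1.17e-09 and 5.47e-10, edgeR). Col7a1, the chain of the anchoring fibrils below that membrane, fell by 2.24 and 2.44 on the log2 scale in mesenchyme relative to epithelium of the parotid and submandibular gland. Vcan, which encodes the hyaluronan-binding proteoglycan versican, was lower in mesenchyme than in epithelium of the parotid gland, with a log2 fold change of -0.77 ± 0.18 (adjusted p = 0.00101, edgeR), and was not called in the submandibular gland (0.27 ± 0.18). Col14a1, a fibril-associated collagen also named undulin, had the reverse pattern: it was lower in mesenchyme of the submandibular gland (-5.69 ± 0.22, adjusted p = 3.67e-12) and was not called in the parotid gland (0.39 ± 0.18, adjusted p = 0.0628, edgeR). The parotid value passed the threshold without replicate 1 of parotid mesenchyme, replicate 2 of parotid epithelium or replicate 4 of submandibular epithelium, at 0.49 at most.

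Setting each member's mean CPM in epithelium against its mean in mesenchyme gave shares of 0.172 to 3290% in the parotid gland, against 0.459 to 5163% in the submandibular gland. For the 15 mesenchymal markers the median of this share was 1.61% in parotid and 2.95% in submandibular gland, and 12 and 11 of the 38 members lay at or under it in parotid and submandibular gland. With limits of 5% and 50% chosen after the values were seen, 14 members were under 5% in both glands. They were Col1a1, Col1a2, Col3a1, Col5a2, Col6a1, Col6a2, Col6a3, Col13a1, Col16a1, Col23a1, Tnc, Dcn, Lum and Eln. At 50% or more in both glands were 9 members: Col7a1, Col8a1, Col8a2, Col14a1, Col17a1, Col18a1, Col27a1, Vcan and Fbln2. Sparc, which encodes a collagen-binding matricellular protein, was between, with 32.6% in parotid and 79.8% in submandibular gland. Its level in parotid epithelium was 324, 423, 498 and 453 CPM, and in submandibular epithelium 444, 492, 570 and 551 CPM.

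**Figure D2:**
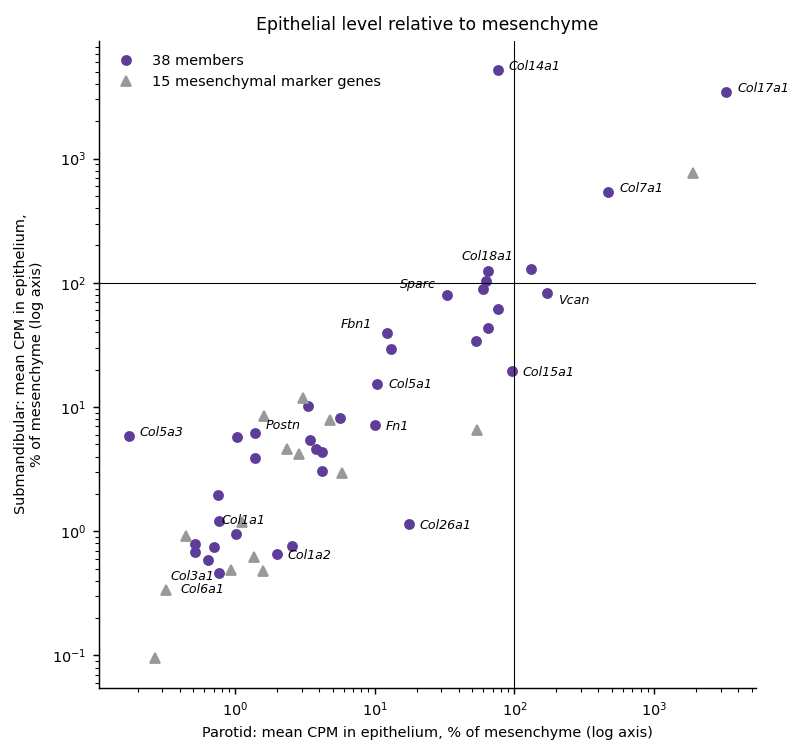
Mean CPM in epithelium as a percentage of mean CPM in mesenchyme, for parotid (horizontal) and submandibular gland (vertical), both on log10 axes, with 38 members as circles and 15 mesenchymal marker genes as triangles. Lines mark 100%, and Col17a1 (3290 and 3449%) and Col7a1 (470 and 543%) lie above both while Col3a1 (0.642 and 0.589%) lies near the lower markers.

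Within an epithelium, the low levels of mesenchymal members were uneven between libraries. Of the 14 members under 5% in both glands, 11 were highest in replicate 3 among the submandibular epithelium libraries, and in parotid epithelium 8 were highest in replicate 3 and the other 6 in replicate 4. Over all 38 members, 22 were highest in replicate 3 and 14 in replicate 4 of submandibular epithelium. In parotid epithelium 15 of the 38 were highest in replicate 3 and 12 in replicate 4. Col1a1 had 19.1, 7.46, 67.4 and 87.2 CPM across parotid epithelium libraries and 2.30, 2.78, 44.9 and 10.7 CPM in submandibular epithelium. Pdgfra, a receptor gene that marks mesenchyme, had 2.76, 1.60, 7.35 and 6.36 CPM in the same parotid libraries and 0.683, 0.202, 9.87 and 2.86 CPM in the submandibular ones. Over the 15 mesenchymal markers, 10 were highest in replicate 3 of submandibular epithelium and 8 in replicate 4 of parotid epithelium. How often each library was highest over all genes tested was not counted. The part of adhering mesenchymal cells in these epithelial levels was not tested.

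Between the glands, members of most families differed in mesenchyme, more of them higher in parotid than lower. In parotid against submandibular mesenchyme 15 of 38 members were higher, where 20.8% of all genes tested were called higher, and 3 were lower, where 13.7% were called lower. The libraries of the groups did not overlap for 25 members, against 36.8% of all genes. The median log2 fold change was 0.73 over the members and 0.04 over all genes. Summed over the 38 members, parotid mesenchyme had 31430 to 45119 CPM and submandibular mesenchyme 18822 to 21162 CPM. The remaining 20 members were not called in the fit of 16 libraries.

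Postn, which encodes periostin, a fibril-binding matricellular protein of tendons, periodontal ligament and heart valves, had 2713, 4327, 2312 and 5446 CPM in parotid mesenchyme, against 273, 288, 294 and 298 CPM in submandibular mesenchyme. The lowest parotid library was far above the highest submandibular library, and the parotid libraries spread more widely than the submandibular ones. The log2 fold change was 3.68 ± 0.44 (adjusted p = 1.76e-05, edgeR). Col14a1 had 205, 237, 276 and 321 CPM in parotid mesenchyme, against 3.88, 4.59, 4.65 and 5.06 CPM in submandibular mesenchyme. This was the largest gland difference of the set, with a log2 fold change of 5.84 ± 0.23 (adjusted p = 5.88e-11, edgeR). Submandibular mesenchyme was the only group with a low Col14a1 level, since both epithelia had 171 CPM or more in each library. Col5a3 had 55.1, 110, 63.7 and 124 CPM in parotid mesenchyme, against 7.61, 8.64, 8.15 and 4.36 CPM in submandibular mesenchyme, with a log2 fold change of 3.61 ± 0.27 (adjusted p = 4.60e-08, edgeR). Per GENCODE on build GRCm38, Postn lies at chr3:54361109-54391037, Col14a1 at chr15:55307750-55520803 and Col5a3 at chr9:20770050-20815067.

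The start sites of members that differed most are shown for the 2 largest changes in each direction with a RefSeq promoter, since Postn and Col5a3 were higher in parotid mesenchyme while Tnc and Col13a1 had the lowest log2 fold changes. Each line gives the 100 bases before the start on build GRCm38.p6, 5′ to 3′ on the gene's strand, with capitals marking TATAAA.
Postn, plus strand, chr3:54361007-54361106: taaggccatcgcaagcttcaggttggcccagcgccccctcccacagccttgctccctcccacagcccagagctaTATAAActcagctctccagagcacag
Col5a3, minus strand, chr9:20815068-20815167: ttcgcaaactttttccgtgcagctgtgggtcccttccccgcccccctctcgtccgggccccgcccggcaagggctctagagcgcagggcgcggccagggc
Tnc, minus strand, chr4:64047016-64047115: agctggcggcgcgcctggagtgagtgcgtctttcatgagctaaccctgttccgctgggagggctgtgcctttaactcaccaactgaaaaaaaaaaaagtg
Col13a1, minus strand, chr10:61979109-61979208: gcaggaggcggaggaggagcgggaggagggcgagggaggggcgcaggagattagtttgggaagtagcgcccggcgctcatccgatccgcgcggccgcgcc
RefSeq windows were matched for 27 of the 38 members, too few for a motif count over the set, which is void. In the 250 bases before the start, on both strands, TATAAA was found for Postn, Tnc and Col13a1 and in 12.4% of all 32851 windows, and CCAAT was found for Col5a3 and in 33.8% of them. Neither motif's letters contain the other's, and a match is a description only.

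Of the 7 fibrillar collagen chains, 3 were called higher in parotid mesenchyme, all of them chains of type V collagen. Col5a1 averaged 675 ± 128 CPM in parotid mesenchyme, against 343 ± 31.6 CPM in submandibular mesenchyme, and Col5a2 averaged 716 ± 116 CPM and 315 ± 24.9 CPM in these groups (SD, n = 4 each). Their log2 fold changes were 0.98 ± 0.18 and 1.18 ± 0.23 (adjusted p = 0.000383 and 0.000876, edgeR). Col27a1, a fibrillar chain best known from cartilage, was not called (-0.34 ± 0.20), except without replicate 4 of parotid mesenchyme (-0.54). Type I and type III chains stood apart in how the test treated them. Col1a1 had 4152, 5354, 3882 and 4644 CPM in parotid mesenchyme, against 1430, 1665, 1579 and 1758 CPM in submandibular mesenchyme. Every parotid library was above every submandibular one, yet the log2 fold change of 1.49 ± 0.82 was not called in the fit of 16 libraries (adjusted p = 0.185, edgeR).

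The fit of 16 libraries gives each gene 1 spread for all groups, and for Col1a1 this spread, as a biological coefficient of variation, was 0.789. Fitted on the 8 mesenchyme libraries alone it was 0.111, and on the 8 epithelium libraries alone 1.06. In the fit of the 8 mesenchyme libraries the log2 fold change of Col1a1 was 1.41 ± 0.11 (adjusted p = 5.13e-06, edgeR). That fit called 22 members higher, where 20.9% of genes were called higher, and 6 lower, where 20.0% were called lower. All 15 and 3 members called in the fit of 16 libraries were among them. The 7 added as higher were Col1a1, Col1a2, Col3a1, Col6a2, Col6a3, Dcn and Lum, and the 3 added as lower were Tnc, Col26a1 and Col23a1. Without replicate 3 of submandibular epithelium Col6a2, Lum, Tnc and Col26a1 were called in the larger fit too, as were Tnc and Col26a1 without replicate 1 or 2 of that group and Col23a1 without replicate 4 of parotid epithelium. Lum, which encodes the fibril-spacing proteoglycan lumican, had 1019, 1437, 1387 and 1809 CPM in parotid mesenchyme, against 349, 350, 408 and 405 CPM in submandibular mesenchyme, with log2 fold changes of 1.90 ± 0.84 over 16 and 1.83 ± 0.15 over 8 libraries. Dcn had 1790, 2309, 2115 and 2854 CPM in parotid mesenchyme, against 1048, 910, 958 and 594 CPM in submandibular mesenchyme, with 1.37 ± 0.71 and 1.29 ± 0.19. For these members the sizes were close in both fits, while the error was smaller over 8 libraries.

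**Figure D3:**
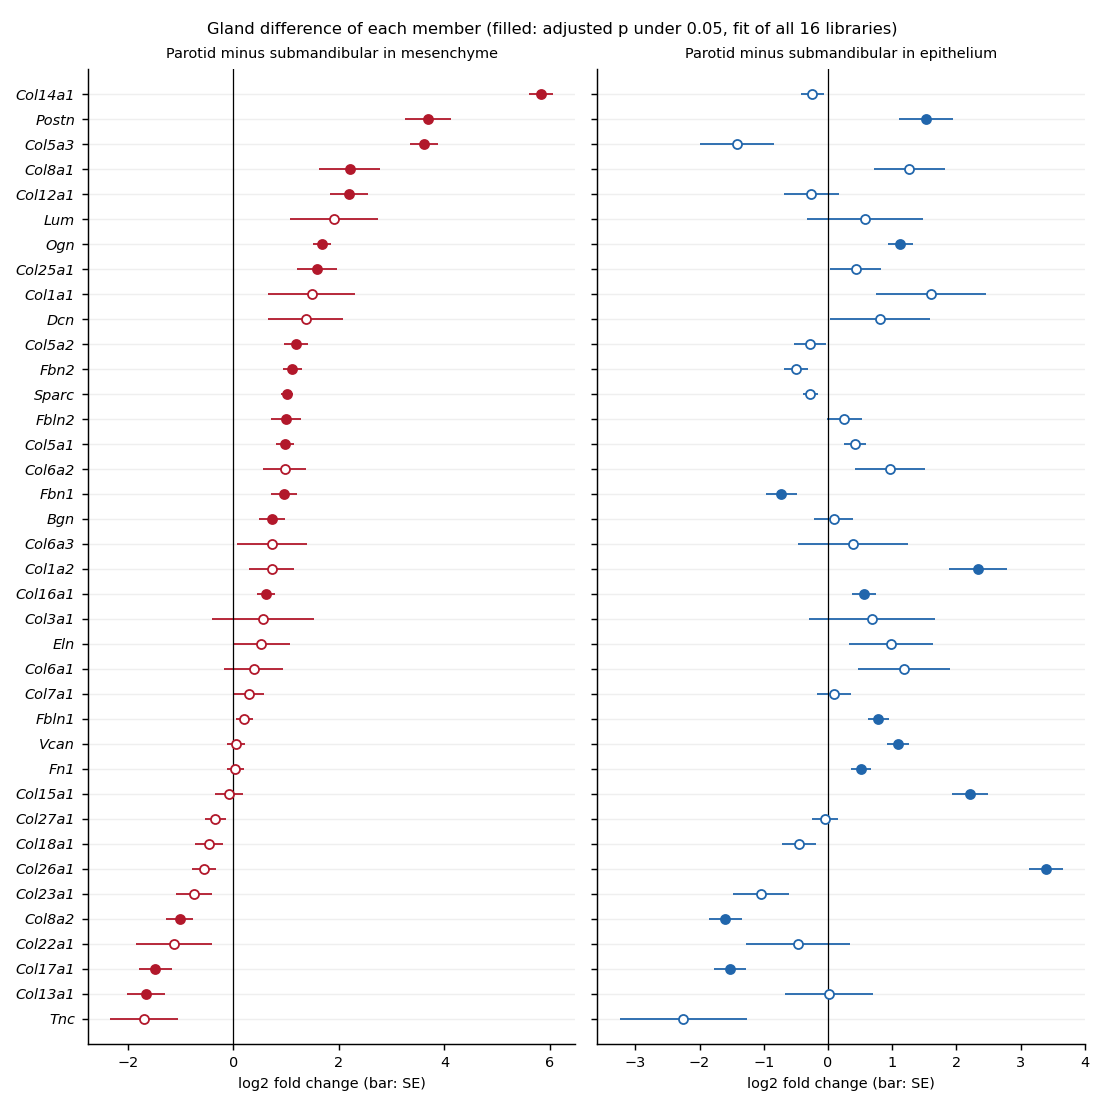
Log2 fold change of each member, parotid minus submandibular, in mesenchyme (left) and epithelium (right), with bars of 1 SE and filled points where the adjusted p was under 0.05 in the fit of 16 libraries. Col14a1, Postn and Col5a3 lie farthest right in mesenchyme, and Col26a1 lies farthest right in epithelium at 3.40 while it is at -0.56 in mesenchyme.

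Fibril-associated and network collagens also differed. Col12a1, which like Col14a1 bridges fibrils, had 269, 317, 284 and 490 CPM in parotid mesenchyme, against 70.9, 76.3, 71.2 and 80.2 CPM in submandibular mesenchyme (log2 fold change 2.19 ± 0.36, adjusted p = 0.000274, edgeR). Col16a1, another fibril-associated chain, changed less, with 250 ± 43.8 CPM in parotid mesenchyme, against 164 ± 9.98 CPM in submandibular mesenchyme (0.62 ± 0.17, adjusted p = 0.0099, edgeR). The libraries of both did not overlap between the glands. Of type VIII collagen, a network collagen of vessels and cornea, the 2 chains went opposite ways. Col8a1 averaged 10.1 ± 5.73 CPM in parotid mesenchyme, against 2.19 ± 1.85 CPM in submandibular mesenchyme (log2 fold change 2.20 ± 0.58), and its libraries overlapped. Without replicate 4 of submandibular mesenchyme the Col8a1 value was 2.94. Col8a2 averaged 25.5 ± 4.73 CPM in parotid mesenchyme, against 51.5 ± 13.0 CPM in submandibular mesenchyme (-1.02 ± 0.25, adjusted p = 0.00527, edgeR), with no overlap. Col6a1 was not called in either fit, with 699 ± 102 CPM in parotid mesenchyme, against 535 ± 64.2 CPM in submandibular mesenchyme and an adjusted p of 0.0526 over 8 libraries (edgeR).

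Transmembrane collagens were mixed: of 4, 2 were called lower in parotid mesenchyme, 1 was higher and Col23a1 was not called over 16 libraries. Their summed level was 119 ± 14.5 CPM in parotid mesenchyme, against 123 ± 37.6 CPM in submandibular mesenchyme (SD, n = 4 each). Col13a1, a transmembrane collagen of cell-matrix junctions including the neuromuscular junction, had 13.8, 8.88, 8.41 and 8.08 CPM in parotid mesenchyme, against 31.9, 25.9, 36.0 and 28.97 CPM in submandibular mesenchyme (log2 fold change -1.65 ± 0.36, adjusted p = 0.0019, edgeR). Col17a1 was also lower (-1.48 ± 0.31), at 2.46 ± 1.16 CPM in parotid mesenchyme, against 6.76 ± 2.16 CPM in submandibular mesenchyme, levels far under those of epithelium. The summed level of the epithelial markers was also lower, 27.7 ± 15.7 CPM in parotid mesenchyme, against 52.8 ± 10.3 CPM in submandibular mesenchyme, and its part in the Col17a1 result was not tested. Col25a1, a transmembrane collagen needed in mice for motor axons to enter muscle, had 84.6, 56.4, 77.0 and 58.5 CPM in parotid mesenchyme, against 12.3, 13.3, 13.5 and 53.1 CPM in submandibular mesenchyme. The groups did not overlap, though replicate 4 of the submandibular group came close to them. The log2 fold change of Col25a1 was 1.59 ± 0.38 and without that library 2.41.

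Among adhesive glycoproteins Postn and Sparc were higher, Fn1 did not pass the test and Tnc was lower in value. Sparc had 1205, 1306, 1204 and 1494 CPM in parotid mesenchyme, against 603, 645, 636 and 694 CPM in submandibular mesenchyme (log2 fold change 1.01 ± 0.12, adjusted p = 4.60e-06, edgeR). Fn1, which encodes fibronectin, had 1377, 1336, 1393 and 1561 CPM in parotid mesenchyme, against 1251, 1409, 1311 and 1539 CPM in submandibular mesenchyme, and these ranges overlapped over most of their length (0.04 ± 0.16). Tnc, which encodes the anti-adhesive tenascin C, had 112, 121, 79.8 and 62.9 CPM in parotid mesenchyme, against 259, 325, 307 and 324 CPM in submandibular mesenchyme. The Tnc libraries did not overlap. Its adjusted p was 0.058 over 16 libraries and 9.01e-05 over 8 (edgeR), with log2 fold changes of -1.69 ± 0.65 and -1.77 ± 0.19. Ogn, which encodes the small proteoglycan osteoglycin, had 143, 92.5, 84.7 and 78.1 CPM in parotid mesenchyme, against 32.9, 28.4, 31.8 and 30.8 CPM in submandibular mesenchyme, with no overlap (1.68 ± 0.17, adjusted p = 1.09e-06, edgeR). Bgn, which encodes biglycan, averaged 78.9 ± 8.11 CPM in parotid mesenchyme, against 47.4 ± 5.46 CPM in submandibular mesenchyme (0.74 ± 0.25, adjusted p = 0.0279, edgeR). That call was lost when any of replicates 1, 2 and 4 of parotid or 1, 2 and 3 of submandibular mesenchyme was left out, with an adjusted p of at most 0.0725.

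Microfibril genes were higher in parotid mesenchyme, while elastin was not called. Fbn2, the fibrillin of embryonic microfibrils, averaged 375 ± 40.2 CPM in parotid mesenchyme, against 173 ± 24.7 CPM in submandibular mesenchyme (log2 fold change 1.12 ± 0.18, adjusted p = 0.000113, edgeR). Fbn1, the other fibrillin, had 674, 794, 971 and 1035 CPM in parotid mesenchyme, against 438, 445, 499 and 408 CPM in submandibular mesenchyme (0.96 ± 0.24, adjusted p = 0.0063, edgeR). Neither fibrillin had overlapping libraries. The libraries do not mark strand, and 20.1% of the annotated exon bases of Fbn1 are shared with Gm9913 on the other strand, so reads of the 2 genes there cannot be told apart. Fbln2, which encodes fibulin 2, averaged 112 ± 28.7 CPM in parotid mesenchyme, against 55.8 ± 16.8 CPM in submandibular mesenchyme (1.00 ± 0.28, adjusted p = 0.0113, edgeR), with overlap at replicate 4 of both groups. Fbln1 was not called (0.21 ± 0.17), nor was Eln, which encodes elastin (0.53 ± 0.54). Eln had 118, 165, 108 and 91.1 CPM in parotid mesenchyme, against 55.3, 60.3, 63.9 and 154 CPM in submandibular mesenchyme.

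Markers of smooth muscle, skeletal muscle and tendon were mostly higher in parotid mesenchyme, while those of other cell types were mixed or not called. Of all genes tested, 20.8% were called higher there and 13.7% lower. Of 10 smooth muscle and pericyte markers 8 were higher in parotid mesenchyme and none was lower, with sums of 525 to 724 CPM in parotid mesenchyme, against 180 to 221 CPM in submandibular mesenchyme. Of 8 skeletal muscle markers 7 were higher and none lower, with sums of 359 to 1470 CPM in parotid mesenchyme, against 162 to 345 CPM in submandibular mesenchyme. All 4 tendon markers were higher, with sums of 19.0 to 129 CPM in parotid mesenchyme, against 4.14 to 8.33 CPM in submandibular mesenchyme. The parotid tendon sums were very uneven between libraries, at 47.7 ± 54.0 CPM (SD, n = 4). Of the 15 mesenchymal markers 5 were higher and 1 was lower, and of 15 epithelial markers 1 was higher and 2 were lower. Of 5 neuron markers 2 were higher and 2 lower, with sums of 255 to 605 CPM in parotid mesenchyme, against 28.2 to 158 CPM in submandibular mesenchyme. Of the bone markers 5 of 7 were tested, with 2 higher and 1 lower at sums of 12.2 to 19.9 CPM in parotid mesenchyme, against 32.5 to 46.5 CPM in submandibular mesenchyme. Of the cartilage markers 5 of 8 were tested, with 1 higher and 3 lower at sums of 33.7 to 81.2 CPM in parotid mesenchyme, against 55.5 to 95.4 CPM in submandibular mesenchyme, and Matn1, which encodes matrilin 1 of cartilage, was at 0 in both groups. No endothelial marker of 10 and no macrophage marker of 8 was called. The Schwann lineage, with 59.3 ± 28.4 CPM in parotid mesenchyme, against 46.0 ± 11.3 CPM in submandibular mesenchyme, had 1 of 6 markers higher and 1 lower. The part of these cells in the matrix differences was not tested.

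How chains of 1 family were balanced within a library was compared by 8 ratios of CPM. These are ratios of counts, not of molecules, since the genes differ in length. Col1a1 to Col1a2, the chains that combine in type I collagen, stood at 1.23, 1.31, 1.17 and 0.99 in parotid mesenchyme, against 0.646, 0.700, 0.630 and 0.792 in submandibular mesenchyme. Col3a1 to Col1a1 stood at 2.22, 2.41, 2.67 and 3.09 in parotid mesenchyme, against 5.56, 5.20, 5.47 and 3.75 in submandibular mesenchyme. Col6a1 to Col6a2 stood at 1.22, 1.34, 1.18 and 1.17 in parotid mesenchyme, against 1.89, 1.92, 1.81 and 1.78 in submandibular mesenchyme. None of these 3 ratios overlapped between the glands, with differences in mean log2 ratio of 0.76, -0.94 and -0.59, parotid minus submandibular. Each had p = 0.0286 in an exact 2-sided permutation test, the smallest that 4 against 4 libraries allow, and 0.0762 after Benjamini-Hochberg adjustment over the 8 ratios. No ratio passed the threshold after adjustment. Of the other 5, Fbln1 to Fbln2 differed by -0.80 (exact p = 0.0571) and Dcn to Bgn by 0.64 (exact p = 0.0857), while Col6a3 to Col6a1, Col5a1 to Col5a2 and Fbn1 to Fbn2 differed by 0.32, -0.21 and -0.18.

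**Figure D4:**
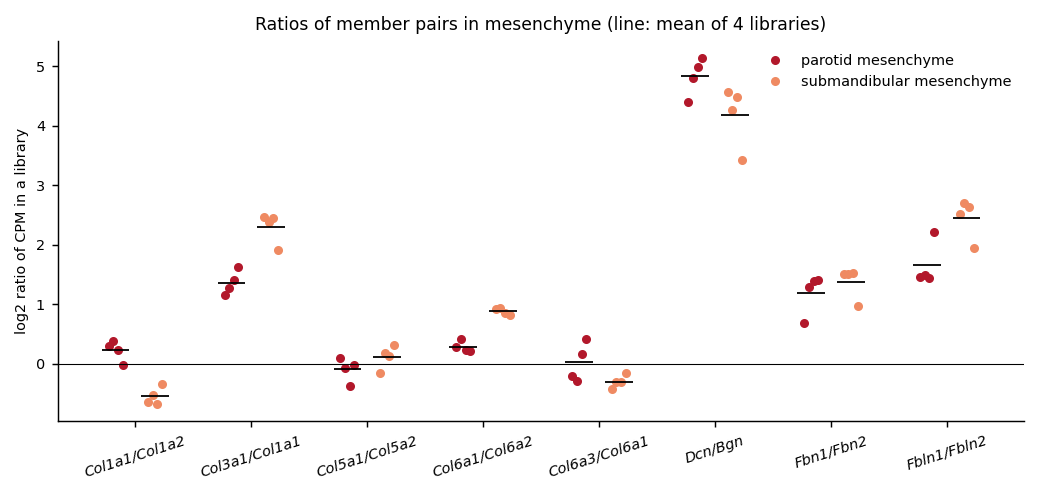
Log2 ratio of the CPM of 2 members within a library, for 8 pairs, with 1 point per library and a line at the mean of 4 libraries of parotid (left of each pair) and submandibular mesenchyme (right). The points of Col1a1/Col1a2 lie higher in parotid mesenchyme and those of Col3a1/Col1a1 and Col6a1/Col6a2 lie lower, without overlap.

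In epithelium fewer members differed between the glands. Of the 12 called there 6 had also been called in mesenchyme, where 15 of all 38 members were called higher and 3 lower. The overlap of these calls was not counted over all genes. Fbn1, 1 of those 6, was called in opposite directions in the 2 layers. Between parotid and submandibular epithelium 9 of 38 members were higher, where 11.2% of all genes tested were called higher, and 3 were lower, where 9.72% were called lower. The median log2 fold change was 0.41 over the members and 0.00 over all genes. Col26a1, a short collagen of the EMI domain family, had 41.9, 47.1, 54.3 and 40.7 CPM in parotid epithelium, against 2.59, 2.58, 7.74 and 4.88 CPM in submandibular epithelium. The ranges were far apart, with a log2 fold change of 3.40 ± 0.26 (adjusted p = 4.26e-07, edgeR). Col15a1, a multiplexin that bridges basement membrane and fibrils, had 20.5, 32.98, 26.6 and 27.5 CPM in parotid epithelium, against 3.16, 5.72, 4.30 and 9.97 CPM in submandibular epithelium, also without overlap (2.21 ± 0.28, adjusted p = 4.89e-05, edgeR). Vcan had 540, 412, 342 and 377 CPM in parotid epithelium, against 202, 204, 146 and 231 CPM in submandibular epithelium (1.09 ± 0.18, adjusted p = 0.000413, edgeR). In all 3, every parotid library was above every submandibular one.

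A hemidesmosome collagen and a network collagen went the other way in epithelium. Col17a1 had 68.7, 101, 78.6 and 75.2 CPM in parotid epithelium, against 175, 218, 331 and 209 CPM in submandibular epithelium (-1.53 ± 0.25 on the log2 scale, adjusted p = 0.000569, edgeR). Col8a2 had 10.9, 18.6, 16.4 and 14.8 CPM in parotid epithelium, against 29.4, 51.8, 32.9 and 69.3 CPM in submandibular epithelium (-1.60 ± 0.26, adjusted p = 0.000437, edgeR). For both the parotid libraries were below all submandibular libraries. Fbn1 was the other member called lower, with 106 ± 19.1 CPM in parotid epithelium, against 176 ± 86.2 CPM in submandibular epithelium (-0.73 ± 0.24, adjusted p = 0.0457, edgeR), and its libraries overlapped. Without replicate 4 of submandibular epithelium its log2 fold change was -0.30 and it was not called, and the call was also lost in most fits without 1 other library.

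Of the remaining members higher in parotid epithelium, Ogn (log2 fold change 1.13 ± 0.20) and Fbln1 (0.79 ± 0.17) had libraries that did not overlap. Fbln1 averaged 222 ± 58.2 CPM in parotid epithelium, against 129 ± 24.3 CPM in submandibular epithelium. Its call was kept with any 1 library left out but was lost under some other setting of the processing. Col1a2 had 53.0, 49.7, 102 and 101 CPM in parotid epithelium, against 5.46, 7.30, 34.3 and 14.1 CPM in submandibular epithelium (2.34 ± 0.46, adjusted p = 0.00274, edgeR), and its value without replicate 3 of submandibular epithelium was 3.11. Col1a1, its partner chain, was not called (1.61 ± 0.86, adjusted p = 0.207, edgeR), but without that same library its value was also 3.11 and it was called (adjusted p = 0.0158). Postn (1.53 ± 0.42), Fn1 (0.51 ± 0.16) and Col16a1 (0.56 ± 0.19) were called with adjusted p of 0.0195, 0.0299 and 0.0444 (edgeR) and had overlapping libraries. Postn lost its call without replicate 3 of parotid or replicate 1 of submandibular epithelium. Col16a1 and Fn1 lost theirs in many such fits, with values of 0.35 for Col16a1 without replicate 3 and 0.34 for Fn1 without replicate 2 of parotid epithelium. The fit of the 8 epithelium libraries called 7 members higher, where 8.59% of genes were called higher, and 2 lower, where 8.60% were called lower. It called Col8a1 and did not call Postn, Fn1, Col16a1 or Fbn1.

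Macrophage markers differed between the epithelia as well: all 8 were higher in parotid epithelium, with sums of 17.4 to 24.9 CPM in parotid epithelium, against 0.431 to 7.74 CPM in submandibular epithelium. Of the 15 mesenchymal markers 6 were higher in parotid epithelium and none was lower. Over all genes tested, 11.2% were called higher and 9.72% lower in this comparison. Of 10 endothelial markers 4 were higher and 1 was lower, at sums of 5.19 ± 4.60 CPM in parotid epithelium, against 4.55 ± 1.26 CPM in submandibular epithelium. The part of these cells in the epithelial results was not tested.

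An interaction, the gland difference in mesenchyme minus that in epithelium, was tested for each member. It was above 0 for 8 members, where 12.2% of all genes tested were called higher, and below 0 for 3, where 8.67% were called lower. Col14a1 had the largest value, 6.08 ± 0.28 (adjusted p = 1.40e-09, edgeR). Its levels were 260 ± 49.7 CPM in parotid mesenchyme, against 4.55 ± 0.491 CPM in submandibular mesenchyme, and 199 ± 32.7 CPM in parotid epithelium, against 235 ± 69.3 CPM in submandibular epithelium (SD, n = 4 each), so 1 group of the 4 stood apart. Col5a3 followed with 5.03 ± 0.62 (adjusted p = 2.19e-05, edgeR), at epithelial levels under 1 CPM in every library. Col12a1 (2.44 ± 0.56), Postn (2.16 ± 0.57), Fbn1 (1.68 ± 0.34), Fbn2 (1.62 ± 0.26), Col5a2 (1.46 ± 0.34) and Sparc (1.29 ± 0.17) were the others above 0. Of these, Fbn1 was called higher in parotid mesenchyme and lower in parotid epithelium, and Postn was called higher in both layers of the parotid gland.

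The 3 members below 0 were all called higher in parotid epithelium, and none was called in mesenchyme over 16 libraries. For Col26a1 the interaction was -3.95 ± 0.34 (adjusted p = 9.27e-07, edgeR). Its mesenchymal levels were 284, 263, 299 and 205 CPM in parotid and 390, 412, 372 and 370 CPM in submandibular gland, so it was lower in parotid mesenchyme and higher in parotid epithelium in every library. The mesenchymal difference was called over 8 libraries (-0.63 ± 0.11, adjusted p = 0.00121) and not over 16 (-0.56 ± 0.22, adjusted p = 0.0668, edgeR). Col15a1 had an interaction of -2.29 ± 0.39 (adjusted p = 0.000453, edgeR), with mesenchymal means of 28.1 ± 7.72 CPM in the parotid, against 29.6 ± 3.36 CPM in submandibular gland. Vcan had -1.04 ± 0.25 (adjusted p = 0.00646, edgeR), with mesenchymal means of 245 ± 17.7 CPM in the parotid, against 236 ± 62.5 CPM in submandibular gland. For both, 3 of the 4 groups were similar in mean: submandibular epithelium was the low one for Col15a1 and parotid epithelium the high one for Vcan. Calls shared by both layers were not counted over all genes. Col16a1, Ogn and Postn were higher in both layers of the parotid gland and Col17a1 and Col8a2 were lower in both. Among these 5, the interaction was called for Postn and was not called for Col16a1 (0.05 ± 0.26), Ogn (0.56 ± 0.26), Col17a1 (0.05 ± 0.42) and Col8a2 (0.58 ± 0.36).

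**Figure D5:**
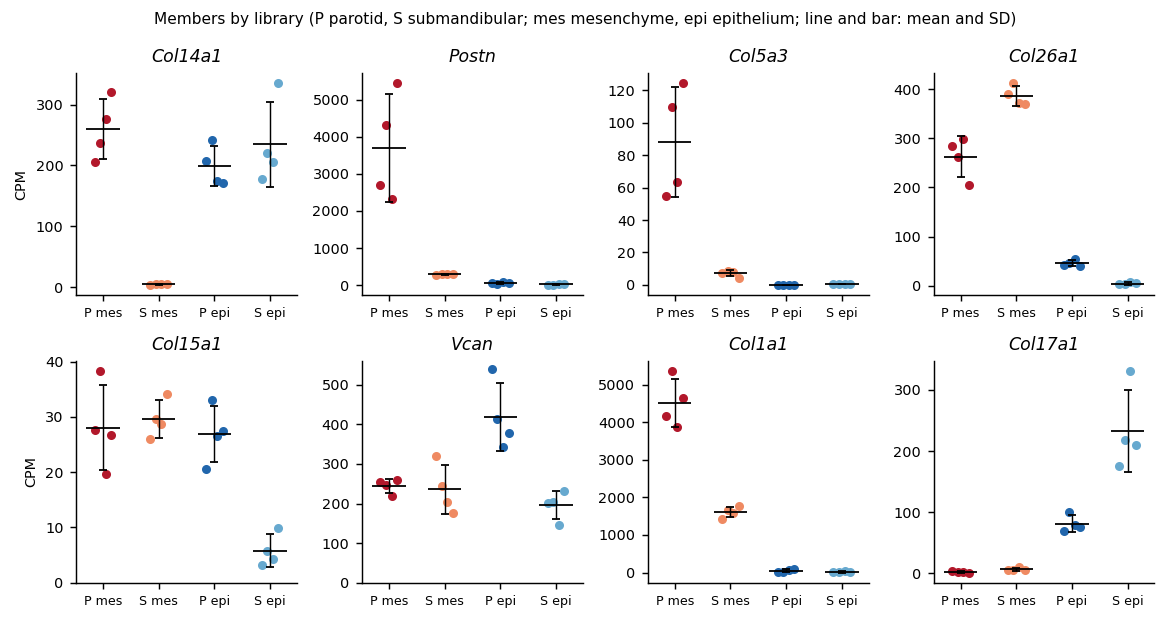
CPM of 8 members in each library, on linear axes that include 0, in parotid and submandibular mesenchyme and parotid and submandibular epithelium, with the mean and SD of 4 libraries. Col14a1 is low in submandibular mesenchyme only (4.55 CPM), Col15a1 is low in submandibular epithelium only (5.79 CPM), and Vcan is highest in parotid epithelium (418 CPM).

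Genes that process or accompany these proteins were read from 5 lists that share no gene with the 38. Of 34 genes for collagen synthesis, folding and crosslinking, 14 were higher and 1 was lower in parotid mesenchyme, where 20.8% and 13.7% of all genes tested were called higher and lower, and the median log2 fold change was 0.32 against 0.04 over all genes. Lox, which encodes the lysyl oxidase that crosslinks collagen and elastin, averaged 546 ± 79.3 CPM in parotid mesenchyme, against 54.6 ± 5.81 CPM in submandibular mesenchyme (log2 fold change 3.32 ± 0.51, adjusted p = 0.000161, edgeR). Loxl1 (1.53 ± 0.22), Colgalt2 (2.39 ± 0.35) and P4ha2 (0.87 ± 0.15), which encode a lysyl oxidase-like enzyme, a collagen galactosyltransferase and a prolyl hydroxylase subunit, were also higher. Adamts14, which encodes a procollagen N-propeptidase, was the gene that was lower (-2.04 ± 0.32), and it was higher in parotid epithelium (1.54 ± 0.31). In parotid epithelium 11 of the 34 were higher and 1 was lower, among them Plod1 (1.43 ± 0.17), a lysyl hydroxylase gene, and Serpinh1 (0.81 ± 0.10), which encodes the collagen chaperone HSP47.

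The same shares of all genes are the background for the other 4 lists. Of 15 other microfibril and elastic fibre genes 7 were higher and 1 was lower in parotid mesenchyme, with Mfap5 at 2.39 ± 0.44, Ltbp4 at 2.12 ± 0.21, Ltbp1 at 1.91 ± 0.33 and Emilin2 at 1.83 ± 0.41 on the log2 scale. Of 9 tested small leucine-rich proteoglycans outside the set 6 were higher and 1 was lower. Kera, which encodes keratocan, averaged 256 ± 22.9 CPM in parotid mesenchyme, against 93.3 ± 32.2 CPM in submandibular mesenchyme (1.46 ± 0.52, adjusted p = 0.043, edgeR), and Epyc, which encodes epiphycan, averaged 0.270 ± 0.0785 CPM and 10.02 ± 1.45 CPM in these groups (-5.20 ± 0.60). Of 22 tested matricellular and adhesive genes 9 were higher and 4 were lower. The higher ones included Ccn3 (4.02 ± 0.46), Thbs2 (3.92 ± 0.22), Smoc2 (3.65 ± 0.28) and Thbs4 (3.56 ± 0.52), and the lower ones included Ccn4 (-1.18 ± 0.22) and Aebp1 (-0.90 ± 0.24). Of 9 genes of hyaluronan and versican partners 4 were higher and 1 was lower. Cd44, which encodes a hyaluronan receptor, averaged 204 ± 37.4 CPM in parotid mesenchyme, against 12.1 ± 4.69 CPM in submandibular mesenchyme (4.07 ± 0.33, adjusted p = 2.03e-07, edgeR). Has2, which encodes a hyaluronan synthase, was higher in parotid mesenchyme (2.40 ± 0.21) and in parotid epithelium (1.44 ± 0.20), with 175 ± 56.8 CPM in parotid epithelium, against 64.7 ± 8.59 CPM in submandibular epithelium.

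The share of all genes called in epithelium was 11.2% higher and 9.72% lower, and the counts of the lists of 9 genes lay near it. In parotid epithelium 4 of the 15 microfibril genes were higher and none was lower, 8 of the 22 matricellular genes were higher and 2 were lower, 2 of the 9 hyaluronan genes were higher and 1 was lower, and of the 9 proteoglycan genes none was higher and 1 was lower. Smoc2 was higher there too (1.52 ± 0.25), and Npnt, which encodes the integrin ligand nephronectin of basement membranes, was lower, with 33.1 ± 6.05 CPM in parotid epithelium, against 108 ± 24.8 CPM in submandibular epithelium (-1.70 ± 0.33, adjusted p = 0.00222, edgeR). The scaling of libraries bears on these directions. With TMM 60.3% of all called genes were higher in parotid mesenchyme, with upper quartile scaling 46.2% and with library totals alone 37.4%, which shifted the median of all genes by -0.11 and -0.17 on the log2 scale. For the interaction the share was 58.5% with TMM and 40.2% with library totals, at a shift of -0.14.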

How the data were processed

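Bulk RNA-seq libraries had been made from 16 dissected tissues with SMART-Seq v4 and Nextera XT kits, per the labels' protocols, which do not mark strand. The submitters' processing notes name STAR 2.5.2a, edgeR and the build GRCm38 (mm10). The step that assigned reads to genes is not given in the sources used here, nor is its annotation. The raw count table deposited by the authors holds whole reads per gene with no normalization, and these counts were tested. The deposited signal table holds CPM that the authors scaled by TMM over fewer features, and it served only to match the members' symbols and to check levels, which stayed within 4.26% of it. A filtered count table was not used.

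Per library 16912258 to 27646844 gene counts were present, and 92 spike-in features were left out. After filterByExpr, 18191 genes were fitted with edgeR 4.0.16 in R 4.3.3 (TMM, quasi-likelihood, robust) with 1 coefficient for each of 4 groups and 5 contrasts. The fit was tested on simulated data. The SE is the log2 fold change divided by the square root of F, and p-values were adjusted by Benjamini-Hochberg over all genes tested. Per-kilobase levels used exon bases from GENCODE, and promoters came from RefSeq on GRCm38.p6. The members, the gene lists and the tests were chosen with earlier results of these data known. Named were called members that averaged 10 CPM or more in 1 of the groups compared, at most 12 per direction by size, and up to 4 genes per direction of each matrix list. Other members were given as values or chosen after their values were seen.

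Same-numbered libraries were checked for pairing: their deviations from the group means correlated at -0.12 to 0.218 in 24 pairs, with a median of 0.02. Between epithelium and mesenchyme, replicates 1 to 4 gave 0.215, 0.218, 0.0507 and 0.0211 in submandibular gland. In parotid gland they gave -0.0319, -0.113, -0.0061 and -0.117. Libraries of unlike number were not compared, so this check cannot exclude pairing, and the main fit used no pairing. No pair of replicates was alike within counting error: their chi-square averaged 10.02 to 53.6 for each gene. Alternatives were upper quartile scaling, library totals, other filters, DESeq2 1.42.0, limma-voom (limma 3.58.1), glmTreat against 1.5-fold, a replicate block, the 8 libraries compared alone, each library left out and, added after the data were seen, each epithelium without its library with most Pdgfra. That the p-values measure the spread between independent samples rests on the labels. In the deposited column names the sample numbers run consecutively within each group, and parotid and submandibular libraries lie in separate ranges. What the numbers stand for is not stated. Any difference in handling between these ranges could not be told apart from the gland difference.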

Additional observations from a re-analysis of the deposited data

Results flagged for a closer look

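In a group of 4 libraries, 1 library was set apart where its gap to the nearest other exceeded Dixon's critical value, as a part of the group's range, which chance passes in about 1 in 20 groups. Groups with a mean under 1 CPM were not examined. With 38 members screened in 4 groups, several of the libraries listed below could have passed by chance. In submandibular epithelium replicate 3 was the highest for Col5a2 (18.99 CPM, others 9.46 to 10.8), Fn1 (132 CPM, others 84.1 to 90.8), Dcn (19.1 CPM, others 1.69 to 4.33) and Lum (23.8 CPM, others 0.605 to 4.36). In that group Fbn1 was highest in replicate 4 (304 CPM, others 117 to 144), and Ogn was lowest in replicate 2 (2.14 CPM, others 2.65 to 2.75). Replicate 4 of submandibular mesenchyme was highest for Col25a1 (53.1 CPM, others 12.3 to 13.5), Eln (154 CPM, others 55.3 to 63.9) and Fbln2 (80.8 CPM, others 46.1 to 50.01). In parotid mesenchyme Col13a1 was highest in replicate 1 (13.8 CPM, others 8.08 to 8.88) and Col23a1, a transmembrane collagen, in replicate 2 (54.5 CPM, others 30.96 to 33.6). In parotid epithelium replicate 4 was highest for Col23a1 (3.04 CPM, others 0.721 to 1.04) and Eln (14.3 CPM, others 1.5 to 2.88).

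The gland difference differed between the layers, by the interaction test of edgeR, for 11 members. In mesenchyme minus epithelium the log2 values were 6.08 for Col14a1, 5.03 for Col5a3, 2.44 for Col12a1, 2.16 for Postn, 1.68 for Fbn1, 1.62 for Fbn2, 1.46 for Col5a2 and 1.29 for Sparc. They were -3.95 for Col26a1, -2.29 for Col15a1 and -1.04 for Vcan.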

How the results depend on the processing

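No call of a named member changed direction under the alternatives run, while values of some members that were not called changed sign. Members lower in parotid mesenchyme, 3 as reported, numbered 5 with upper quartile scaling, with at least 1 CPM in 4 libraries, and with each epithelium without its library with most Pdgfra (added after the data were seen), 6 with limma-voom or the 8 libraries alone, 7 with library totals and 3 to 5 with 1 library left out, where 5 came without replicate 1, 2 or 3 of submandibular epithelium. Members higher in parotid epithelium, 9 as reported, numbered 5 with glmTreat and 6 to 13 with 1 library left out, the lowest without replicate 1 and the highest without replicate 3 of submandibular epithelium. Members lower there, 3 as reported, numbered 5 with upper quartile scaling or the replicate block, 7 with DESeq2 and 2 to 5 with 1 library left out. Interactions below 0, 3 as reported, numbered 5 with library totals, the replicate block or the Pdgfra alternative and 3 to 5 with 1 library left out, where 5 came without replicate 1 of parotid or 3 of submandibular epithelium. Whether replicate numbers pair the samples was not settled, and the block changed no other count by over 1.5 times. Members higher in parotid mesenchyme, 15 as reported, numbered 11 with glmTreat to 22 with 8 libraries. The 14 members named by the rule on level and size in mesenchyme kept their calls in 152 of 154 values. The 11 named in epithelium kept theirs in 104 of 121. These values leave out the fits without 1 library, where the counts were 224 of 224 and 150 of 176. Bgn, Col16a1, Col17a1 and Fbn1 were called in mesenchyme but lay outside those 14. In mesenchyme glmTreat ended the calls of Col8a2, Fbln2, Col16a1 and Fbn1, and Bgn lost its call with glmTreat, library totals or no filter. Vcan lost its parotid layer call and its interaction with glmTreat, and Postn its interaction with no filter. Without replicate 3 of submandibular epithelium the submandibular layer values were 8.26 for Col1a1, 8.29 for Dcn, 7.58 for Lum and 7.85 for Tnc. The ratio of Col3a1 to Col1a1 differed by -0.86 without replicate 1 and -0.90 without replicate 2 of parotid mesenchyme, where 3 against 4 libraries were left. Epithelial levels near or under 1 CPM limit what can be said of Col5a3, Col13a1 and Col22a1 there.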

Other observations

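Summed levels by family gave a further view of the scaffold. Fibrillar chains held 21593 ± 3689 CPM in parotid mesenchyme, against 12597 ± 1052 CPM in submandibular mesenchyme (SD, n = 4 each), and adhesive glycoproteins held 6512 ± 1642 CPM and 2614 ± 198 CPM in these groups. The 4 members of the anchoring fibril and multiplexin group, led by Col26a1 and Col18a1, held 458 ± 85.4 CPM in parotid mesenchyme, against 644 ± 45.0 CPM in submandibular mesenchyme. In epithelium the transmembrane collagens, mostly Col17a1, held 91.6 ± 14.2 CPM in parotid epithelium, against 243 ± 67.7 CPM in submandibular epithelium. These sums weight long and abundant genes and were not tested.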
